A study of Homo sapiens with 4 samples.

Results

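The mitosis and spindle genes are 58 genes of the cell division programme, chosen by name from the 19729 genes of the deposited tables. They fall into 8 subgroups by role, namely the cyclin-CDK1 engine (10 genes), the spindle checkpoint and anaphase (8), the chromosomal passenger complex (4), the centromere and kinetochore (8), kinesins (8), spindle assembly (9), cytokinesis (4), and condensin and chromosome structure (7). Each symbol matched 1 Ensembl identifier of the tables through GENCODE v29. The choice used no threshold on a measured value.

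The libraries come from HT-29, a human colorectal cancer cell line labelled MSS, BRAF-V600E and APC-mutant, whose APC protein is truncated. Cells were used 3 to 5 passages after lentiviral transduction with a doxycycline (DOX)-inducible shRNA, either against APC (APC shRNA) or non-silencing (NonS, the control). Both conditions received 500 ng/ml DOX for 72 h, so the hairpin is the labelled difference between them and the APC and BRAF mutations are shared. The mRNA of biological duplicates, numbered I and II, was sequenced for each condition, which makes 4 libraries.

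Entry into mitosis is driven by the kinase CDK1 bound to A- and B-type cyclins, after which condensins compact the chromosomes and kinesins build a bipolar spindle. The spindle checkpoint holds back the anaphase-promoting complex until every kinetochore is attached, and CDC20 then starts anaphase and the midzone proteins guide cytokinesis. Most of these transcripts are made late in the cell cycle, and in the colon they mark the dividing cells of the lower crypt, where Wnt signaling is high. Their promoters often hold a cell cycle genes homology region (CHR), which the MuvB complexes bind, and CCAAT boxes, which NF-Y binds.

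The promoters are shown first, because the members share sequence features that played no part in their choice. RefSeq promoters of GRCh38.p14 (250 bases before to 50 after the start) were found for 50 of the 58 members. FOXM1, BUB3, TTK, UBE2C, BIRC5, AURKA, TPX2 and RACGAP1 are not among them. The 120 bases before the start are printed 5′ to 3′ on the gene's strand for 7 members that fell after APC silencing (CCNB2, PLK1, CDCA8, ZWINT, KIF4A, PRC1 and NCAPH), for CCNB1 as the partner of CDK1, and for STMN1 and CDC25B as the 2 tested members with higher values in both APC shRNA libraries. Capitals mark the CHR letters TTTGAA and the CCAAT box, on either strand, so that they also appear as TTCAAA and ATTGG. The stretches lie at chr15:59105026-59105145 (plus strand) for CCNB2, chr16:23678769-23678888 (plus) for PLK1, chr1:37692396-37692515 (plus) for CDCA8, chr10:56361260-56361379 (minus) for ZWINT, chrX:70289984-70290103 (plus) for KIF4A, chr15:90994536-90994655 (minus) for PRC1 and chr2:96335646-96335765 (plus) for NCAPH. Those of CCNB1, STMN1 and CDC25B lie at chr5:69167030-69167149 (plus), chr1:25906420-25906539 (minus) and chr20:3786831-3786950 (plus).
CCNB2: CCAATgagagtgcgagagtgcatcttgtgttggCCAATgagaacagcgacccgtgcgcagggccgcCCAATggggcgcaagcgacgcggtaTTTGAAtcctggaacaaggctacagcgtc
PLK1: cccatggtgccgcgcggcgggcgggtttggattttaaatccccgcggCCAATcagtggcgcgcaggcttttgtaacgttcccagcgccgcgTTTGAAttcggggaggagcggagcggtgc
CDCA8: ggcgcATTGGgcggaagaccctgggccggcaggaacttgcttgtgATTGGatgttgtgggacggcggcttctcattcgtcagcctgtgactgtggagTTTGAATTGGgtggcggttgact
ZWINT: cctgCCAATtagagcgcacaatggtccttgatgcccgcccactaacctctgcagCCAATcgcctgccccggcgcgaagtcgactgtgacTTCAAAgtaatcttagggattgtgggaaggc
KIF4A: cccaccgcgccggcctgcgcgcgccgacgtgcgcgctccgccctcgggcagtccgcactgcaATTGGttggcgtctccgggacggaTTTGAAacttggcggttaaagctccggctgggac
PRC1: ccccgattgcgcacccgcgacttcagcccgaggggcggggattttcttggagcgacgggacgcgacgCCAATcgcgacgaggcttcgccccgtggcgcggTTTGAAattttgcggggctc
NCAPH: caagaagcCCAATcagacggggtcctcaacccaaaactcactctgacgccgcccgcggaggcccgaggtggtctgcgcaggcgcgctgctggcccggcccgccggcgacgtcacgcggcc
CCNB1: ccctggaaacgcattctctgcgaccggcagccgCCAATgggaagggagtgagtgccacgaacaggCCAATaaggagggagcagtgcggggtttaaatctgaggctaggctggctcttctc
STMN1: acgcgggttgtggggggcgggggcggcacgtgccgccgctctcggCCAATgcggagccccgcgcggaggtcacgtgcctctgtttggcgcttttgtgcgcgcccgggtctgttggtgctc
CDC25B: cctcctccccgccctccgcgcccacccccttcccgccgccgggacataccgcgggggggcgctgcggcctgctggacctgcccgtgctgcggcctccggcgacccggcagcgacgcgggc

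In CCNB2 the TTTGAA started 29 bases before the start and 3 CCAAT boxes lay upstream of it, 54, 87 and 120 bases before the start. PLK1 had the same letters at 29 bases with 1 CCAAT box at 73. KIF4A, PRC1, CDCA8 and ZWINT had the CHR letters between 20 and 34 bases before the start, in ZWINT on the opposite strand. NCAPH, CCNB1 and STMN1 had a CCAAT box without TTTGAA in the printed stretch, and CDC25B had neither. Only TTTGAA and TTCGAA were searched as CHR letters, so a stretch without them is not shown to lack a CHR. AURKB, CENPW, KIF2C, KIFC1 and TACC3, which also fell and had a promoter, are not printed. None of them had TTTGAA in the 120 bases before the start. KIF2C and TACC3 had neither TTTGAA nor CCAAT in the whole window, so the printed stretches show TTTGAA more often than the promoters of all members that fell.

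Over the whole window TTTGAA was found in 35 of the 50 member promoters (70.0%), against 4212 of all 27305 RefSeq promoters (15.4%) and 337 of 4289 promoters of genes tested here (7.86%). The variant TTCGAA was found in 8.0% of the member promoters, in 1.45% of all and in 1.73% of those of genes tested. CCAAT was found in 76.0% of the member promoters, in 35.7% of all and in 38.7% of those of genes tested. A core of the E2F site, GCGGGAA, was found in 10.0% of the member promoters, 6.56% of all and 10.9% of those of genes tested. The TCF/LEF core CTTTGA, through which Wnt signaling acts, was found in 8.0%, 13.1% and 7.74%. In the 34 promoters of tested members TTTGAA was found in 61.8%, CCAAT in 85.3%, GCGGGAA in 2.94% and CTTTGA in 8.82%. Of these shares only that of CTTTGA lay close to the genes tested. CTTTGA and TTTGAA have 5 letters in common and can overlap. Both strands were searched for each motif. In the promoters of 51 DNA replication and S phase genes the order was the other way round, with TTTGAA in 1.96% and GCGGGAA in 39.2%. Among the 12 promoters found for members that fell after APC silencing, 7 (58.3%) held TTTGAA and 10 (83.3%) held CCAAT. A match is a description of the letters and not of binding.

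The values are whole numbers per gene and library that behave as scaled scores and not as read counts, so the depth in reads is unknown and levels are compared only within a gene. Totals ran from 398338 to 413595 over the 4 libraries. APC had a value of 3 in NonS replicate I and of 0 elsewhere, so its difference rests on 1 library, whereas the Wnt target AXIN2 stood at 16 and 22 in NonS against 124 and 178 in APC shRNA libraries. Of 15 epithelial and colon markers 12 were tested, EPCAM and the keratins KRT8 and KRT18 among them, and LGALS4 fell from 557 and 646 to 175 and 147 (log2 difference −1.90, adjusted p = 0.0423 in limma). CDX1 was at 0 in both APC shRNA libraries and CDX2 at 0 in both NonS libraries. Of 16 markers of other cell types 12 were at 0 in every library, and their summed value of 755, 914, 617 and 860 (NonS I and II, APC shRNA I and II) was nearly all LYZ.

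Silencing of APC was accompanied by lower values of mitosis and spindle genes across all 8 subgroups. The difference of log2(value + 1) between conditions was tested with limma in the 5376 genes whose mean value reached 10, with Benjamini-Hochberg adjustment over all of them, and genes were called at an adjusted p under 0.05. Of the 58 members 41 were tested and 17 of them fell (41.5%), where 3.7% of all genes tested fell. None of the 41 rose (0 members, against 4.33% of all genes tested), and at an unadjusted p under 0.05 the counts were 33 lower (15.8% of all genes tested) and 2 higher (19.8%). The 17 were CCNB2, PLK1, UBE2C, AURKB, BIRC5, CDCA8, CENPW, ZWINT, KIF2C, KIF4A, KIFC1, AURKA, TPX2, TACC3, PRC1, RACGAP1 and NCAPH. Their log2 differences lay between −1.08 and −0.62 and their mean values in APC shRNA between 46.3% and 63.6% of those in NonS libraries. At the thresholds of the study, an over 4-fold change with an adjusted p under 0.01, 0 of the 41 tested members and 0.0% of all genes tested were called. The smallest adjusted p of any gene in limma was 0.0423, so no gene could meet them whatever its change. The 17 members with a mean under 10 were outside this test and have no call in either direction.

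The median log2 difference of the 41 tested members was −0.76, against 0.027 for all genes tested. On average 39 of the 41 were lower in APC shRNA (95.1%, against 47.1% of all genes tested). Both APC shRNA libraries lay below both NonS libraries in 37 of the 41, where this held for 27.5% of all genes tested, and above them in 2 (33.0% of all), STMN1 and CDC25B. In CKS2 and ECT2 the groups overlapped. With the untested genes 49 of the 58 members were lower in both APC shRNA libraries, where this held for 19.1% of the 12799 genes above 0 in at least 1 library. By more than 1 on the log2 scale 13 members were lower, where 2.57% of all genes tested were. The filter on the mean passed 8 members with a mean under 10 in APC shRNA libraries, of which 2 fell. In the 33 members whose mean reached 10 in each condition 15 fell and 30 had lower values in both APC shRNA libraries. In bulk RNA, fewer dividing cells and less of these RNAs per cell cannot be told apart.

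These calls rest on duplicates. In data simulated with 200 of 5376 genes changed, limma called 0% of 1.5-fold and 32.5% of 2-fold changes. A member or list gene that was not called can therefore still have changed. In the deposited values limma called 432 genes, among them the DNA replication gene RFC2 at a log2 difference of −0.51. The simulated shares are thus not a detection limit for these calls. With any 1 of the 4 libraries left out limma called 0 members and 0 of all genes, and each of the 41 members kept the sign of its difference. At an unadjusted p under 0.05, 19, 21, 30 and 28 members were lower without NonS I, NonS II, APC shRNA I and APC shRNA II, where 10.1%, 10.5%, 10.3% and 10.1% of all genes tested were. An exact two-sided permutation test of 2 libraries against 2 cannot give a p under 0.33, and the sources name biological duplicates without stating how the cultures were separated.

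**Figure D1:**
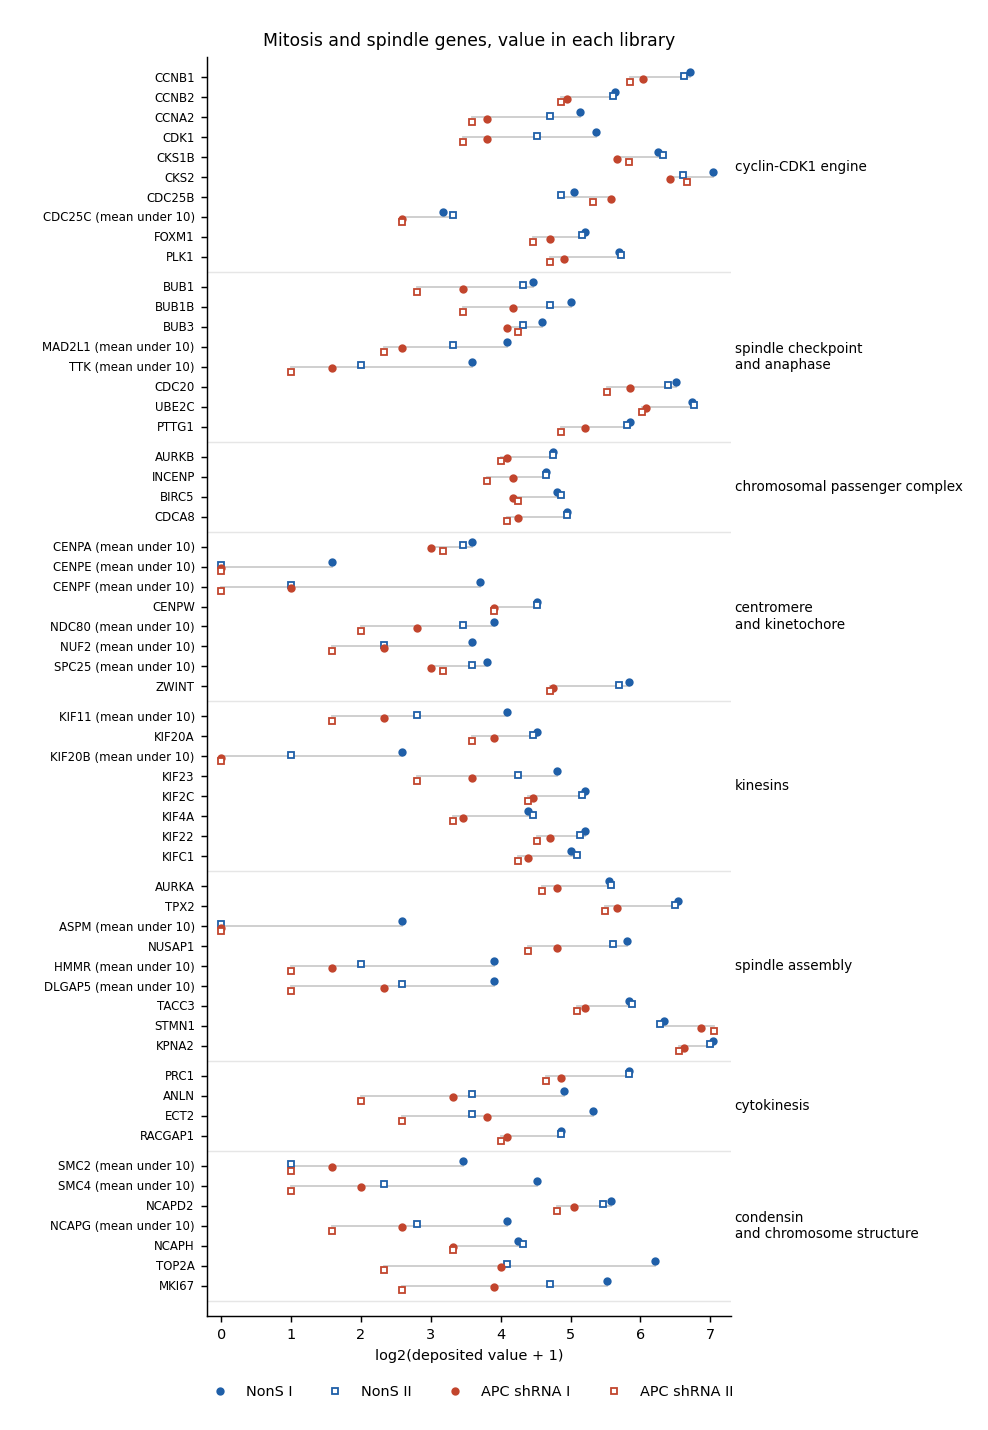
Value of each of the 58 members in the 4 libraries on the log2(value + 1) scale, by subgroup, with NonS in blue, APC shRNA in red, replicate I as filled circles and replicate II as open squares, and a grey line from the lowest to the highest value. In most genes both red points lie left of both blue points; STMN1 and CDC25B are the tested genes with both red points on the right, and the 17 genes marked as having a mean under 10 were not tested.

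The cyclin-CDK1 engine brings cells into mitosis, and CCNB2 and PLK1 fell among its 9 tested genes, with a median difference of −0.72. CCNB2, the second B-type cyclin (chromosome 15 from 59105078 to 59125045, plus strand), stood at 49 and 48 in NonS against 30 and 28 in APC shRNA libraries (log2 difference −0.72, standard error 0.06, adjusted p = 0.0428 in limma). PLK1, the Polo-like kinase of mitotic entry and cytokinesis (chromosome 16 from 23677656 to 23690367), stood at 51 and 52 in NonS against 29 and 25 in APC shRNA libraries (−0.91, standard error 0.10, adjusted p = 0.0452). In both genes the replicates differed by far less than the conditions.

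CCNB1, the B-type cyclin that activates CDK1 (chromosome 5 from 69167010 to 69178245), stood at 104 and 98 in NonS against 65 and 57 in APC shRNA libraries, a log2 difference of −0.72 (standard error 0.10) that missed the threshold with an adjusted p of 0.0503 in limma. CDK1 itself (chromosome 10 from 60778331 to 60794852) stood at 40 and 22 in NonS against 13 and 10 in APC shRNA libraries, the widest difference of the subgroup at −1.31, with a standard error of 0.36 (adjusted p = 0.114 in limma). Its NonS libraries differed by 0.83 on the log2 scale, and both still lay above the APC shRNA libraries. CCNA2, the cyclin of S phase and early mitosis, stood at 34 and 25 in NonS against 13 and 11 in APC shRNA libraries (−1.22, adjusted p = 0.0622).

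FOXM1, a transcription factor of G2/M genes, stood at 36 and 35 in NonS against 25 and 21 in APC shRNA libraries (log2 difference −0.61, adjusted p = 0.068 in limma). The CDK-binding subunit CKS1B stood at 75 and 79 in NonS against 50 and 56 in APC shRNA libraries, with the conditions apart (−0.53, adjusted p = 0.0616). Its relative CKS2 stood at 131 and 97 in NonS against 85 and 101 in APC shRNA libraries, which overlap (−0.28, adjusted p = 0.386). CDC25B, a phosphatase that starts CDK1 activation (chromosome 20 from 3786772 to 3806121), went the other way, with 32 and 28 in NonS and 47 and 39 in APC shRNA libraries (0.50, standard error 0.14, adjusted p = 0.112). CDC25C, the phosphatase that acts later, stood at 8 and 9 in NonS against 5 in both APC shRNA libraries and was too low to be tested.

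In the spindle checkpoint and anaphase group UBE2C fell among 6 tested genes, all 6 had lower values in both APC shRNA libraries, and the median difference was −0.78. UBE2C, the ubiquitin-conjugating enzyme that works with the anaphase-promoting complex (chromosome 20 from 45812576 to 45816957), stood at 106 and 108 in NonS against 67 and 64 in APC shRNA libraries (log2 difference −0.70, standard error 0.06, adjusted p = 0.0423 in limma). CDC20, the activator of that complex at anaphase, stood at 90 and 83 in NonS against 57 and 45 in APC shRNA libraries (−0.76, adjusted p = 0.0755). PTTG1, the separase inhibitor securin, stood at 57 and 55 in NonS against 36 and 28 in APC shRNA libraries (−0.80, adjusted p = 0.0709). For CDC20 and PTTG1 the conditions were apart, and the APC shRNA replicates differed more than the NonS replicates.

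Among the checkpoint proteins proper, the kinase BUB1 stood at 21 and 19 in NonS against 10 and 6 in APC shRNA libraries (log2 difference −1.26, adjusted p = 0.083 in limma). BUB1B, the checkpoint protein BubR1, stood at 31 and 25 in NonS against 17 and 10 in APC shRNA libraries (−1.04, adjusted p = 0.128). BUB3, the partner of both, differed least, with 23 and 19 in NonS and 16 and 18 in APC shRNA libraries (−0.29, adjusted p = 0.227). MAD2L1 (16, 9, 5 and 4 in NonS I and II and APC shRNA I and II) and TTK (11, 3, 2 and 1) were not tested, and in both the conditions were apart.

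The chromosomal passenger complex, which corrects attachments of kinetochores and later acts at the midzone, is covered by 4 genes, and 3 of them fell. AURKB, its Aurora kinase (chromosome 17 from 8204733 to 8210600), stood at 26 in both NonS libraries against 16 and 15 in APC shRNA libraries (log2 difference −0.71, standard error 0.06, adjusted p = 0.0423 in limma). CDCA8, borealin, stood at 30 in both NonS libraries against 18 and 16 in APC shRNA libraries (−0.79, adjusted p = 0.0452). BIRC5, survivin, stood at 27 and 28 in NonS against 17 and 18 in APC shRNA libraries (−0.62, adjusted p = 0.0452). The scaffold INCENP stood at 24 in both NonS libraries against 17 and 13 in APC shRNA libraries, and its difference of −0.66 had an adjusted p of 0.093. The mean values of all 4 subunits in APC shRNA lay between 56.7% and 63.6% of those in NonS libraries, the narrowest range of the subgroups with at least 4 tested genes.

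Only 2 of the 8 centromere and kinetochore genes could be tested, and both fell. ZWINT, a kinetochore partner of KNL1 (chromosome 10 from 56357228 to 56361275), stood at 56 and 51 in NonS against 26 and 25 in APC shRNA libraries (log2 difference −1.04, standard error 0.07, adjusted p = 0.0423 in limma). CENPW, a histone-fold protein of the inner kinetochore, stood at 22 in both NonS libraries against 14 in both APC shRNA libraries (−0.62, adjusted p = 0.0423). With the GC trend of each library removed its difference was −0.33 and it was no longer called (adjusted p = 0.247 in limma). The other 6 had means under 10. Of these CENPA, the centromeric histone variant (11, 10, 7 and 8 in NonS I and II and APC shRNA I and II), NDC80 (14, 10, 6 and 3) and SPC25 (13, 11, 7 and 8) were lower in both APC shRNA libraries. In NUF2 (11, 4, 4 and 2), CENPF (12, 1, 1 and 0) and CENPE (2, 0, 0 and 0) the conditions overlapped or tied, and NonS replicate I stood above the other 3 libraries.

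All 6 tested kinesins had lower values in both APC shRNA libraries, 3 of them fell, and the median difference was −0.75. KIF4A, a chromokinesin of the chromosome arms and the midzone (chromosome X from 70290090 to 70420832), stood at 20 and 21 in NonS against 10 and 9 in APC shRNA libraries (log2 difference −1.04, standard error 0.08, adjusted p = 0.0423 in limma). KIF2C, a microtubule depolymerase of the centromere, stood at 36 and 35 in NonS against 21 and 20 in APC shRNA libraries (−0.76, adjusted p = 0.0423). KIFC1, a minus-end motor of the spindle poles, stood at 31 and 33 in NonS against 20 and 18 in APC shRNA libraries (−0.72, adjusted p = 0.0465). These 3 motors act at different places of the spindle, and their mean values in APC shRNA libraries were 46.3%, 57.7% and 59.4% of those in NonS libraries.

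KIF23, the motor subunit of centralspindlin, had the widest difference of the tested kinesins, with 27 and 18 in NonS and 11 and 6 in APC shRNA libraries (log2 difference −1.33, standard error 0.39, adjusted p = 0.121 in limma). KIF20A, which acts in late mitosis, stood at 22 and 21 in NonS against 14 and 11 in APC shRNA libraries (−0.75, adjusted p = 0.0709). KIF22, the chromokinesin Kid, stood at 36 and 34 in NonS against 25 and 22 in APC shRNA libraries (−0.56, adjusted p = 0.0622). KIF11, the Eg5 motor that separates the spindle poles (16, 6, 4 and 2), and KIF20B (5, 1, 0 and 0) were not tested, and NonS replicate I was highest in both.

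The spindle assembly factors AURKA, TPX2 and TACC3 fell among 6 tested genes of their group, whose median difference was −0.79. AURKA, the Aurora kinase of the spindle poles (chromosome 20 from 56369389 to 56392337), stood at 46 and 47 in NonS against 27 and 23 in APC shRNA libraries (log2 difference −0.87, standard error 0.10, adjusted p = 0.0465 in limma). Its activator TPX2 (chromosome 20 from 31739271 to 31801805) stood at 92 and 89 in NonS against 50 and 44 in APC shRNA libraries (−0.93, standard error 0.09, adjusted p = 0.0452). TACC3, a protein of kinetochore fibres, stood at 56 and 58 in NonS against 36 and 33 in APC shRNA libraries (−0.71, adjusted p = 0.0452). The kinase and its activator were thus at 53.8% and 51.9% of their NonS means.

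NUSAP1, which bundles spindle microtubules, had the widest difference among the tested genes of the group, with 55 and 48 in NonS and 27 and 20 in APC shRNA libraries (log2 difference −1.11, standard error 0.19, adjusted p = 0.0642 in limma). KPNA2, the importin alpha that holds spindle factors inactive, stood at 130 and 127 in NonS against 98 and 93 in APC shRNA libraries (−0.42, adjusted p = 0.0546). STMN1, stathmin, which sequesters tubulin (chromosome 1 from 25884181 to 25906991, minus strand), stood at 80 and 77 in NonS against 116 and 132 in APC shRNA libraries. Its difference of 0.65 (standard error 0.09) had an adjusted p of 0.0545 in limma, and the mean in APC shRNA was 158% of that in NonS libraries. HMMR (14, 3, 2 and 1), DLGAP5 (14, 5, 4 and 1) and ASPM (5, 0, 0 and 0) were not tested.

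In the cytokinesis group the median difference was −1.17, and PRC1 and RACGAP1 fell among 4 genes. PRC1, which bundles the antiparallel microtubules of the midzone (chromosome 15 from 90966038 to 90995629, minus strand), stood at 56 in both NonS libraries against 28 and 24 in APC shRNA libraries (log2 difference −1.08, standard error 0.10, adjusted p = 0.0441 in limma). RACGAP1, the GTPase-activating subunit of centralspindlin, stood at 28 in both NonS libraries against 16 and 15 in APC shRNA libraries (−0.81, adjusted p = 0.0423). ANLN, the scaffold of the contractile ring, stood at 29 and 11 in NonS against 9 and 3 in APC shRNA libraries (−1.58, standard error 0.75, adjusted p = 0.234). ECT2, the exchange factor that activates RhoA, stood at 39 and 11 in NonS against 13 and 5 in APC shRNA libraries (−1.26, adjusted p = 0.362). In ANLN and ECT2 replicate II was far below replicate I in both conditions, and in ECT2 APC shRNA replicate I lay above NonS replicate II.

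The 4 tested genes of condensin and chromosome structure had a median difference of −1.41, and NCAPH fell. The median was −0.96 without NonS I. Only NCAPD2 had at least 10 in every library, with a difference of −0.60. NCAPH, the kleisin of condensin I (chromosome 2 from 96335787 to 96373845), stood at 18 and 19 in NonS against 9 in both APC shRNA libraries (log2 difference −0.96, standard error 0.06, adjusted p = 0.0423 in limma). NCAPD2, another condensin I subunit, stood at 47 and 43 in NonS against 32 and 27 in APC shRNA libraries (−0.60, adjusted p = 0.0752). The core ATPases SMC2 (10, 1, 2 and 1) and SMC4 (22, 4, 3 and 1) and the subunit NCAPG (16, 6, 5 and 2) were not tested.

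TOP2A, the topoisomerase that untangles sister chromatids, and MKI67, the Ki-67 coat protein of mitotic chromosomes, had the widest differences of all tested members, with standard errors above those of any member that fell. TOP2A (chromosome 17 from 40388516 to 40417950) stood at 73 and 16 in NonS against 15 and 4 in APC shRNA libraries (log2 difference −1.99, standard error 1.08, adjusted p = 0.281 in limma). MKI67 (chromosome 10 from 128096659 to 128126385) stood at 45 and 25 in NonS against 14 and 5 in APC shRNA libraries (−1.87, standard error 0.62, adjusted p = 0.147). Without NonS I the differences were −0.93 for TOP2A and −1.45 for MKI67, without NonS II −3.05 and −2.28, without APC shRNA I −2.83 and −2.53 and without APC shRNA II −1.15 and −1.21. In TOP2A the lower NonS library exceeded the higher APC shRNA library by 1.

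Within same-numbered replicates the direction was the same in nearly every member. APC shRNA replicate I lay below NonS replicate I in 39 of the 41 tested members, and APC shRNA replicate II below NonS replicate II in 38. Both held in 38 (36.9% of all genes tested). With the untested genes both held in 52 of the 58, a count for which no share over all genes was computed. The median difference was −0.69 in replicate I and −0.87 in replicate II, against 0.0 and 0.025 for all genes tested. TOP2A differed by −2.21 and −1.77 in replicates I and II, MKI67 by −1.62 and −2.12, ANLN by −1.58 in both and CDK1 by −1.55 and −1.06. STMN1 was higher by 0.53 and 0.77 and CDC25B by 0.54 and 0.46, while CKS2 differed by −0.62 in replicate I and by 0.06 in replicate II. With the replicate number as a block in limma 27 members fell (9.3% of all genes tested) and CDC25B rose (9.73%), and with the GC trend of each library removed as well 37 fell (23.3%) and 2 rose (22.7%). No source states that a number marks a shared batch.

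By subgroup, the median differences in replicates I and II were −0.67 and −0.76 for the cyclin-CDK1 engine, −0.65 and −0.91 for the checkpoint and anaphase genes, −0.65 and −0.80 for the chromosomal passenger complex and −0.85 and −0.81 for the 2 tested kinetochore genes. They were −0.68 and −0.86 for the kinesins, −0.69 and −0.90 for spindle assembly, −1.24 and −1.09 for cytokinesis and −1.27 and −1.38 for condensin and chromosome structure. The difference within a numbered pair was thus below 0 in every subgroup and in both replicates. The summed values of the 58 members took 0.56% and 0.456% of the library totals in NonS and 0.318% and 0.286% in APC shRNA libraries.

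**Figure D2:**
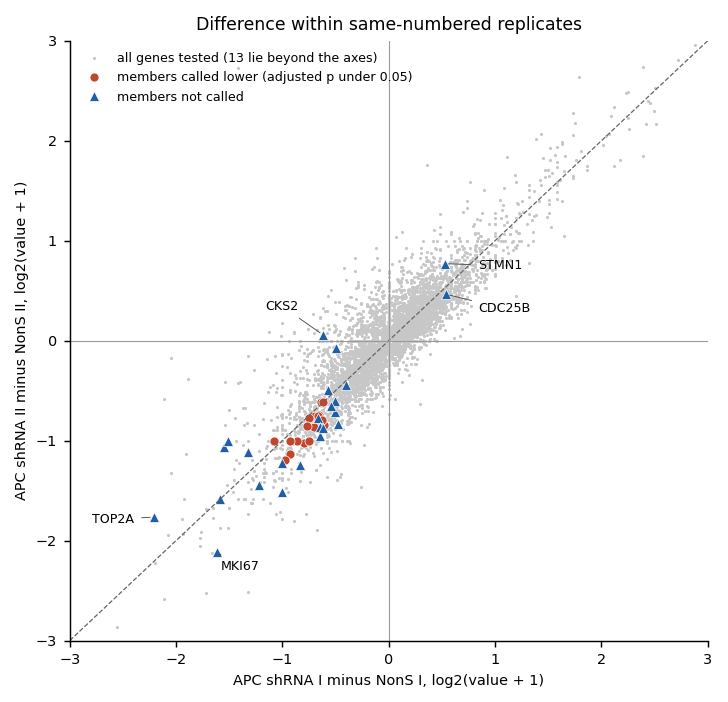
Difference of log2(value + 1) between APC shRNA and NonS in replicate I (x axis) and replicate II (y axis) for the 5376 genes tested (grey, of which 13 lie beyond the axes), the 17 members that fell (red circles) and the other tested members (blue triangles), with the dashed line marking equal differences. Members lie below 0 on both axes, except CKS2, STMN1 and CDC25B.

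The duplicates were unequally close, and members with transcripts of low GC content differed more between NonS replicates. The 17 members that fell had replicate differences of at most 0.22 on the log2 scale, against up to 2.12 in the 24 tested members that were not called. A call in limma depends on the spread between replicates, so this contrast follows largely from the call rule. Of the 41 tested members 26 were lower in NonS replicate II than in NonS replicate I, and 34 were lower in APC shRNA replicate II than in APC shRNA replicate I. In the 17 tested members with a GC content under 45% in their longest transcript the median of NonS replicate II minus I was −0.26, the median standard error was 0.20 and 3 fell. In the 24 members with a GC content of 45% or more these were −0.02, 0.09 and 14. The median difference between conditions was −1.04 in the 17 members of low GC content and −0.76 in the 24. Both APC shRNA libraries lay below both NonS libraries in 14 and 23 of them, against 27.5% of all genes tested. The limit of 45% was chosen after the values were seen.

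Across the 41 tested members, which share the 4 libraries, GC content and NonS replicate II minus I had a Pearson correlation of 0.49, and across 5364 genes tested it was 0.45. For APC shRNA replicate II minus I it was 0.25 and 0.16. Transcript length went with the replicate differences over the members, at −0.35 in NonS and −0.52 in APC shRNA libraries. Over all genes tested these correlations were only −0.09 and −0.13. GC content and the difference between conditions had a correlation of 0.29 over the members and 0.23 over all genes, and the median GC content was 46.8% in the tested members and 51.9% in all genes tested. The part of base composition in the differences between conditions was not tested, but with the GC trend of each library removed 28 members fell, CENPW was no longer called and STMN1 rose, where 9.0% and 8.41% of all genes tested did.

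**Figure D3:**
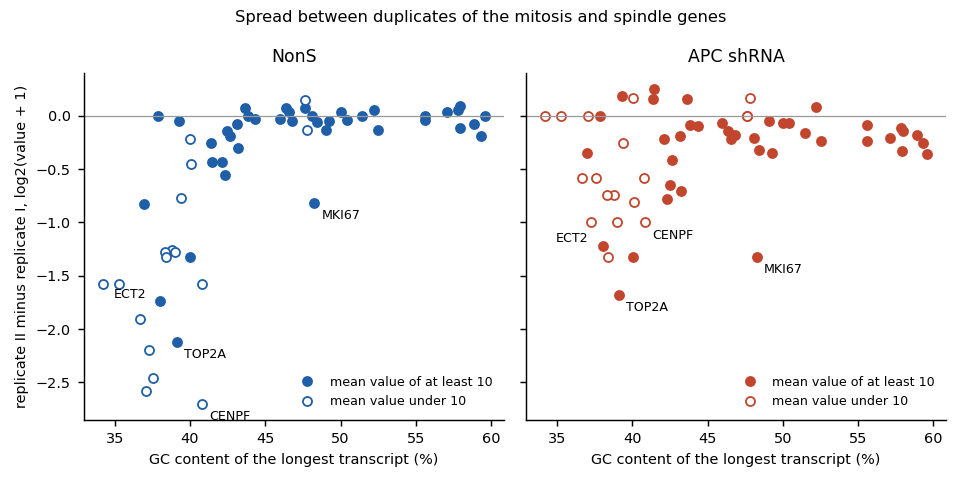
Replicate II minus replicate I of log2(value + 1) against the GC content of the longest GENCODE v29 transcript (%) for the 58 members in NonS (left) and APC shRNA libraries (right), with members of a mean of at least 10 as filled and of a lower mean as open circles. Replicate differences over 1 in size are mostly in members with a GC content under 45%, with MKI67 as an exception in APC shRNA.

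Other genes of the cell cycle were read from lists beside the members. Of 43 tested DNA replication and S phase genes 17 fell (39.5%) and 0 rose, where 3.7% and 4.33% of all genes tested did. In 42 of them both APC shRNA libraries lay below both NonS libraries, where this held for 27.5% of all genes tested. Their median difference was −0.74, close to that of the mitosis and spindle genes. PCNA, the sliding clamp of DNA polymerases, stood at 150 and 144 in NonS against 76 and 77 in APC shRNA libraries (log2 difference −0.93, adjusted p = 0.0423 in limma). FEN1, CDC45, RRM2 and LIG1 fell as well, with differences from −1.08 to −0.72. Of 24 tested other G2/M and spindle genes 6 fell (25.0%, against 3.7% of all genes tested), with a median of −0.75 over the list. They were the kinases MELK and PKMYT1, the chromatin protein HMGB2, the lamins LMNB1 and LMNB2 and the tubulin TUBB4B.

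Of 11 tested other centromere and kinetochore genes 3 fell (HJURP, DSN1 and OIP5, 27.3%), where 3.7% of all genes tested did, and the median was −0.47. Of 5 tested cohesin genes CDCA5, sororin, fell from 40 and 38 to 24 and 23 (log2 difference −0.71, adjusted p = 0.0428 in limma). RAD21, the cohesin kleisin, stood at 177 and 113 in NonS against 91 and 53 in APC shRNA libraries (adjusted p = 0.192). Among 11 tested subunits and regulators of the anaphase-promoting complex 0 fell and 0 rose in limma, where 3.7% and 4.33% of all genes tested did. At an unadjusted p under 0.05 in limma 2 were lower and 2 higher, near the shares of all genes tested (15.8% and 19.8%). The median was 0.11. Values in NonS I and II and APC shRNA I and II ran from 40, 36, 29 and 29 for ANAPC5, the lowest difference at −0.38, to 25, 25, 37 and 33 for CDC26, the highest at 0.47, both subunits of the complex. These 2 were named after their values were seen.

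Among 11 tested CDK inhibitors, p53 targets and DREAM subunits 0 fell and 2 rose, where 3.7% and 4.33% of all genes tested did. CDKN1C, the CDK inhibitor p57, rose from 4 in both NonS libraries to 42 and 56 in APC shRNA libraries (log2 difference 3.31, standard error 0.17, adjusted p = 0.0423 in limma), and BTG2, an antiproliferative p53 target, from 16 in both to 30 and 34 (0.95, adjusted p = 0.0441). CDKN1A, p21, stood at 6 and 11 in NonS against 3 and 5 in APC shRNA libraries and was not tested. CDKN1B, p27, stood at 15 and 13 in NonS against 19 and 27 in APC shRNA libraries (0.66, adjusted p = 0.141). MYBL2, which activates G2/M genes with MuvB, stood at 73 and 72 in NonS against 47 and 39 in APC shRNA libraries (−0.75, adjusted p = 0.0593).

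**Figure D4:**
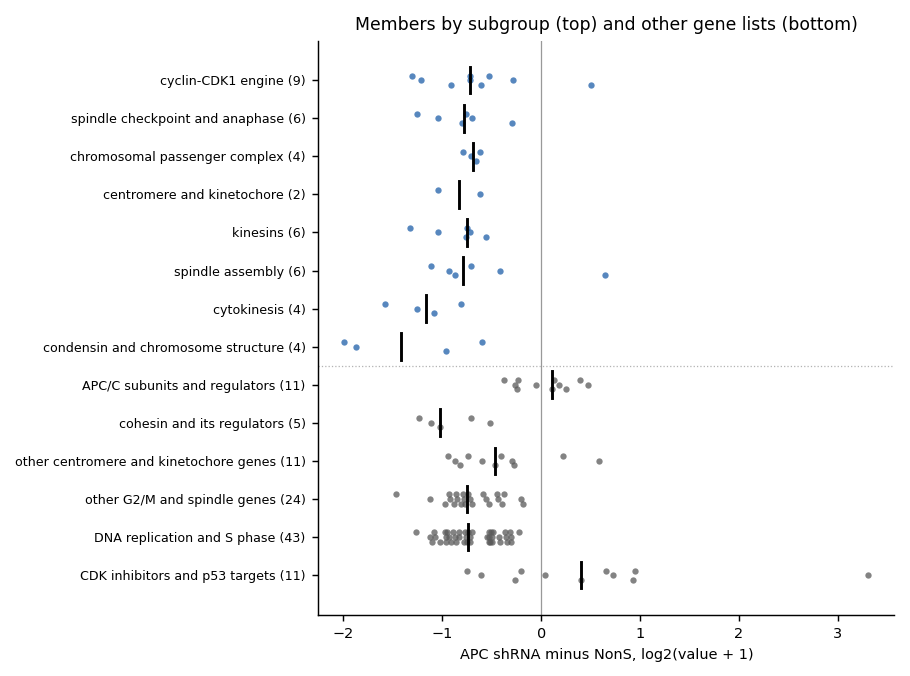
Difference of log2(value + 1) between APC shRNA and NonS for each tested gene (points, spread vertically for legibility) by subgroup of the members (blue) and by other list (grey), with the number tested in brackets and the median as a black bar. Medians lie between −1.41 and −0.68 in the 8 subgroups, at −0.74 in the DNA replication and S phase genes, at 0.11 in the anaphase-promoting complex list and at 0.40 in the CDK inhibitor list.

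Some members share exonic bases with other genes, and whether reads were divided between them was not tested. On the same strand PRC1 shares 3181 exonic bases with AC068831.7, NUSAP1 1787 with AC087721.2, BUB1B 457 with BUB1B-PAK6, CENPA 138 with SLC35F6 and STMN1 66 with MIR3917. On the opposite strand 19 members share exonic bases with another gene, PLK1, KIF2C, KIF4A, KIFC1, PRC1 and RACGAP1 among those that fell, and the strand setting of the counting is not given in the sources used here. Pseudogenes named after the gene exist for 15 members, CCNB2, UBE2C, AURKA and RACGAP1 among those that fell, and how reads were divided between such copies was not tested.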

How the data were processed

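RNA of HT-29 cells was sequenced in 4 libraries, NonS and APC shRNA in duplicate, and libraries were grouped by the treatment and title in the sample labels. The authors prepared stranded mRNA libraries, sequenced 50 bp single reads, removed low quality reads and poly(A) tails, mapped with TOPHAT2 to human genome assembly 38 and counted reads per gene with htseq-count on GENCODE v29. The submitters' processing notes list bcl2fastq 2.19.0.316, DESeq2 1.4.1 and the build hg19, which differs from assembly 38. The values that the authors deposited, whole numbers for each gene in each library, were treated as a score of unstated scale: between replicates of low genes (summed values of 10 to 39) its variance was 0.474 (NonS, 4632 genes) and 0.345 (APC shRNA, 4531 genes) times that of Poisson counts. The depth in reads is therefore unknown, no counting interval is given and rounding limits low values. A deposited table of the authors' comparison (mean, log2 fold change, fold change and adjusted p) was not used, and 0 columns of per-sample values were left unused.

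Values were taken as deposited. The log2(value + 1) of genes with a mean of at least 10 was compared between conditions by the moderated linear model of limma 3.58.1 (R 4.3.3, mean-variance trend, no covariate), with Benjamini-Hochberg adjustment over all 5376 genes tested and calls at an adjusted p under 0.05. A difference on this scale understates the change of low genes. The test was tried on data simulated from the means and spread of the genes tested. With 200 of 5376 genes changed it called 0% of 1.5-fold, 32.5% of 2-fold and 76.5% of 4-fold changes. A gene without a call can therefore still have changed. In the deposited values 432 genes were called, so the simulated shares are not a detection limit there. Alternatives covered scaling, GC content (a loess trend per library, span 0.5), a replicate block, pseudocounts, filters, robust moderation, thresholds and each library left out. Positions, exon overlaps and GC content were read from GENCODE v29, where 19502 of the 19729 genes were found, and 5364 of the genes tested have a GC content. Promoters come from RefSeq. Tables were joined with Python 3.11.15 and pandas 2.3.3.

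The members and lists were chosen with earlier results of these data known. Values in every library are given for each called member, the 2 tested members of each subgroup with the widest difference, and CCNB1, CDK1, PLK1, AURKA, AURKB, CDC20, TOP2A and MKI67. Of each other list the called genes with the smallest p are named, and further genes were named after their values were seen. The whole lists were counted. Same-numbered libraries are paired by the numeral in their titles, which no source ties to a shared batch.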

Additional observations from a re-analysis of the deposited data

How the results depend on the processing

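The direction of the difference was kept in each of the 41 tested members under every alternative in which the member was tested, while the calls moved with the processing. The members that fell numbered 17, against 33 at an unadjusted p under 0.05 (15.8% of all genes tested), 29 when scaled to equal totals (6.86%) or with robust moderation (6.55%), 28 with GC content correction (9.0%) and 30 at an adjusted p under 0.1 (11.2%). At the thresholds of the study they numbered 0, but no gene tested could meet these, as the smallest adjusted p in limma was 0.0423. Members that rose numbered 0, but 1 with median-of-ratios (5.77% of all genes tested), equal-total (6.38%) or upper-quartile scaling (6.25%), GC content correction (8.41%), a mean of at least 20 (5.58%), robust moderation (6.85%) or an adjusted p under 0.1 (13.6%), and 2 at an unadjusted p under 0.05 (19.8%). Of 515 comparisons of single members with the other alternatives, 414 kept their side of the threshold, 98 passed it newly and 3 lost it.

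With the replicate number as a replicate block 27 members fell (9.3% of all genes tested) and 1 rose, CDC25B (9.73%). Of the 17 members 16 were called in both fits, and KIFC1 was lost (adjusted p = 0.0532 in limma). TOP2A, MKI67, ANLN, KIF23, CCNB1 and CCNA2 were among those gained. The block with GC content correction gave 37 lower (23.3%) and 2 higher (22.7%). No source says that the numbers mark a shared batch, and with 2 pairs this cannot be settled. Differences between replicates were correlated between the conditions at 0.724 across the genes tested, which share the libraries.

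Medians of log2 differences moved in some settings. Over all members the median was −0.89 with a total of at least 1. For the cyclin-CDK1 engine it was −0.62 with GC content correction and −0.65 with a pseudocount of 5, and for the chromosomal passenger complex −0.57 with a pseudocount of 5. For the kinetochore genes it was −0.86 when scaled to equal totals or by the upper quartile or with a pseudocount of 0.1, −0.70 with GC content correction, −0.72 with a pseudocount of 5 and −0.90 with a total of at least 1. With a mean of at least 20 only ZWINT was left of them, at −1.04. For the kinesins it was −0.90 with a total of at least 1. For cytokinesis it was −1.03 with GC content correction, −0.98 with a pseudocount of 5, and −0.95 with at least 10 in every library or a mean of at least 20. For condensin it was −1.51 and −1.12 with pseudocounts of 0.1 and 5 and −1.87 with a mean of at least 20. With at least 10 in every library only NCAPD2 was left of this group, at −0.60.

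With each library left out the median was between −0.87 and −0.67 over all members, −0.77 and −0.63 in the cyclin-CDK1 engine, −0.95 and −0.65 in the checkpoint genes, −0.80 and −0.67 in the passenger complex, −0.86 and −0.79 in the kinetochore genes, −0.85 and −0.69 in the kinesins, −0.88 and −0.71 in spindle assembly, −1.60 and −0.85 in cytokinesis, and −1.75 and −0.96 in condensin. Between 37 and 39 members were lower and 2 higher without overlap. Groups fail to overlap more readily when a library is missing, and the share over all genes was not computed for these fits. The counts are therefore no measure of robustness. Each fit assumes that the lone library varies like the other condition.

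In the other lists, cohesin genes that fell numbered 2 with each of the 3 scalings, 4 with the block and 4 with the block and GC content correction. Other G2/M genes that fell numbered 13 with each scaling, 12 with the block and 21 with the block and GC content correction. S phase genes that fell numbered 28 with equal-total or upper-quartile scaling, 26 with the block and 38 with the block and GC content correction. CDK inhibitors and p53 targets that rose numbered 5 in both blocked fits, and those that fell 1 with each scaling and 2 with the block and GC content correction. That last fit gave 2 lower and 2 higher of 11 anaphase-promoting complex genes, and 6 lower and 1 higher of 11 other kinetochore genes. Of all genes tested, 5.67% to 6.86% fell with the scalings, 9.3% with the block and 23.3% with the block and GC content correction. In the 2 blocked fits 9.73% and 22.7% rose. For the anaphase-promoting complex genes neither count exceeded the share of all genes tested. The causes of these changes were not tested.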
